A study of Mus musculus with 10 samples.

Results

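The tetraspanin family apart from Tspan8 was taken as 30 mouse genes: the Tspan genes, the members named as CD antigens (Cd9, Cd37, Cd53, Cd63, Cd81, Cd82 and Cd151), the uroplakins Upk1a and Upk1b, and the photoreceptor genes Prph2 and Rom1. They are 30 of 21887 protein-coding genes. A member was represented by every cytosine of a CpG with at least 5 reads in both libraries inside its gene span or within 2 kb either side, which gave 5802 of 6745376 cytosines (0.0860%), at 3883 CpGs. The rule used position and coverage, not methylation. Because the flanks of Cd151 and Tspan4 overlap, 8 cytosines were counted in both.

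The assay was reduced-representation bisulfite sequencing (RRBS) of DNA methylation, in which DNA is cut with restriction enzymes, treated with bisulfite and sequenced, so that CpG-rich fragments are sampled most densely. The cells were ID4-EGFP+ spermatogonia, germ cells that carry a fluorescent Id4 reporter transgene, from testes of male LT-11B6 pups (an Id4-eGfp transgenic line on the C57BL/6 background) at postnatal day 6. Both groups carried the transgene and received no treatment. They differed in antibody staining for the surface protein TSPAN8: the TSPAN8-high group held the most strongly stained cells and the TSPAN8-low group the most weakly stained positive cells. Each group was 1 library from 5 pooled sorts, so no value has a replicate, and every p-value compares 2 libraries and not 2 kinds of cell. The 8 chromatin samples of the series were not analysed here.

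The members held 71252 reads in TSPAN8-high against 70986 in TSPAN8-low, of 83658949 and 83773700 in the table, and the median cytosine had 10 reads in either library. The starts of genes that somatic cells methylate were examined as markers of male germ cells: 14 of 14 measured germline genes were below 20% in both libraries, as were 82.6% of all gene starts. Of 11 measured imprinted genes that carry maternal methylation in somatic cells, 10 were below 20%, and Impact was the exception at 95.5% and 93.6%. With fewer than 5 CpGs and so not counted, Stk31 of the first list was at 28.6% and 29.8%, and Snrpn of the second at 85.7% and 80.4%. The marker windows were set by the start end of the gene span and not by imprinted control regions. The levels of Impact, from 6 CpGs, and Snrpn, from 3, therefore do not show whether their imprints were methylated. Where 2 levels stand together, TSPAN8-high comes first, and every difference is TSPAN8-high minus TSPAN8-low. Intervals are 95% intervals, exact Clopper-Pearson for a level and Newcombe for a difference, and cover counting error only. They are too narrow even for that, because a read that covers several CpGs counts at each.

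Tetraspanins are small proteins that cross the membrane several times. They gather integrins, proteases, immunoglobulin-family proteins and receptors into membrane domains, and are best known for cell adhesion, fusion of gametes, exosome formation and the trafficking of partner proteins. In mammals, methylation of CpGs at a CpG-rich gene start usually goes with a silent gene, whereas gene bodies are methylated in active and silent genes alike, and a start with few CpGs is often methylated whatever its activity. Expression was not measured in the data used here.

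The promoters at the ends of the range show a contrast in CpG number that not every member follows. Below are 300 bases, from 250 before to 50 after the listed transcript start. They are given for the members with the lowest (Tspan17 and Cd81) and the highest (Tspan32 and Tspan10) methylation within 1 kb of the span end. Only members whose listed promoter lies in that window were ranked, which leaves out Tspan12, Tspan6 and Cd63. Tspan18 and Upk1b have no listed promoter and were left out too, although the Upk1b window was higher, at 99.1% and 97.2%. At their listed starts Tspan6 (0.568% and 0%) and Tspan12 (0.212% and 1.42%) were low too, with 9 and 7 CpGs in the 300 bases. The ranking pooled the reads of both libraries, and Cd81 would not rank second by its level in TSPAN8-high alone. The sequences are from RefSeq on GRCm38.p6, plus strand, with each CpG in capitals: Tspan17 at chr13:54789155-54789454, Cd81 at chr7:143052500-143052799, Tspan32 at chr7:143004796-143005095 and Tspan10 at chr11:120442381-120442680.
Tspan17: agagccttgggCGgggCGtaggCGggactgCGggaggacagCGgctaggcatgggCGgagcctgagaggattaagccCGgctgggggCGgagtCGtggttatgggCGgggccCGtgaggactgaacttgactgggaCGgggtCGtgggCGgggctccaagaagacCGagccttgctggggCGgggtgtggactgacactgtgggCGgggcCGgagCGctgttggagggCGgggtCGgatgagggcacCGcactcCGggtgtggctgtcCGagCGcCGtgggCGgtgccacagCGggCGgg
Cd81: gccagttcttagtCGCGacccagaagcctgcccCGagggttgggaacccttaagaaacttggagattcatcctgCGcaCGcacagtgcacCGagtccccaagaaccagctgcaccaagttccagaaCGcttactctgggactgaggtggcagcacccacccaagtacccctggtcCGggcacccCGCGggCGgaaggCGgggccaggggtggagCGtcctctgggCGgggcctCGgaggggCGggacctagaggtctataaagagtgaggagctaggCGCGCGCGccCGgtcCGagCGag
Tspan32: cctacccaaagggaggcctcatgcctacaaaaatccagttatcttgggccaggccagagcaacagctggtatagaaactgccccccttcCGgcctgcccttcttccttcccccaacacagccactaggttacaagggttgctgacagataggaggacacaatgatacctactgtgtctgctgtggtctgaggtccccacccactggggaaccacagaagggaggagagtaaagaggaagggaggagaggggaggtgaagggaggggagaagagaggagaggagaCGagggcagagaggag
Tspan10: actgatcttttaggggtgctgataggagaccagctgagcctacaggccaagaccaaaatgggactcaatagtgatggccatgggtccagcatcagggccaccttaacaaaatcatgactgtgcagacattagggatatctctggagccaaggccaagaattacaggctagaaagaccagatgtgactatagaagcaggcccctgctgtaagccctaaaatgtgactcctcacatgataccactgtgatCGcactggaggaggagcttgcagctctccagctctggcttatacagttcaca

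The Tspan17 sequence holds 29 CpGs and the Cd81 sequence 23, against 2 for Tspan32 and 1 for Tspan10. In Tspan17, 19 of the 29 were measured, with 0.353% of 566 reads methylated in TSPAN8-high against 0.229% of 437 in TSPAN8-low. In Cd81, 6 were measured, at 1.89% of 106 reads and 1.11% of 180. No CpG of the Tspan32 or Tspan10 sequence was measured, and their levels come from 5 and 6 CpGs farther out, within 1 kb of the start. The first listed promoters of 28 members had a median of 17.5 CpGs in these 300 bases. The median over all 32851 listed promoters, which include alternative starts, was 7. The letters GGGCGG, the core of the GC box bound by Sp1-type factors, were found on either strand in 15 of the 28, and in 35.7% of all listed promoters. Both comparisons set unlike groups side by side, since the members' own alternative starts were left out. Tspan17 held 10 matches and Cd81 held 3, while Tspan32 and Tspan10 held none. A match describes the sequence and is not a measured binding site.

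The main comparison asked whether the starts of the tetraspanin genes differed in methylation between the sorted fractions. Reads were pooled over all CpGs within 1 kb either side of the start end of the gene span, and 28 members had the minimum of 5 CpGs there. In both libraries 21 of the 28 were below 20% (75%, against 82.6% of 15539 genes tested) and 6 were above 80% (21.4%, against 9.45%). The remaining start, that of Cd37, was at 13.3% and 23.2%. Not all 6 windows above 80% lie at known starts. Tspan12 (0.212% and 1.42%) and Tspan6 (0.568% and 0%) were low at their listed starts, and Upk1b had no known strand. No member was called different at an adjusted p below 0.05 and at least 10 percentage points by Fisher's exact test with Benjamini-Hochberg adjustment over all genes, a rule that called 0.74% of the genes tested. Without the minimum difference the count was again 0 of 28, where 4.47% of genes were called. At an unadjusted p below 0.05, Fisher's exact test gave 3 members (10.7%, against 17.1% of all genes), Tspan18, Tspan33 and Cd81, and their differences were at most 1.05 percentage points in size. The Cochran-Mantel-Haenszel test (CMH), which compares the libraries cytosine by cytosine, gave 4 at an unadjusted p below 0.05 (14.3%, against 18.5% of all genes). After adjustment, with the same minimum difference, it called none of the members and 0.412% of all genes. The precision varied: the interval of a difference was between 1.07 and 29.9 percentage points wide, with a median of 4.47.

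**Figure D1:**
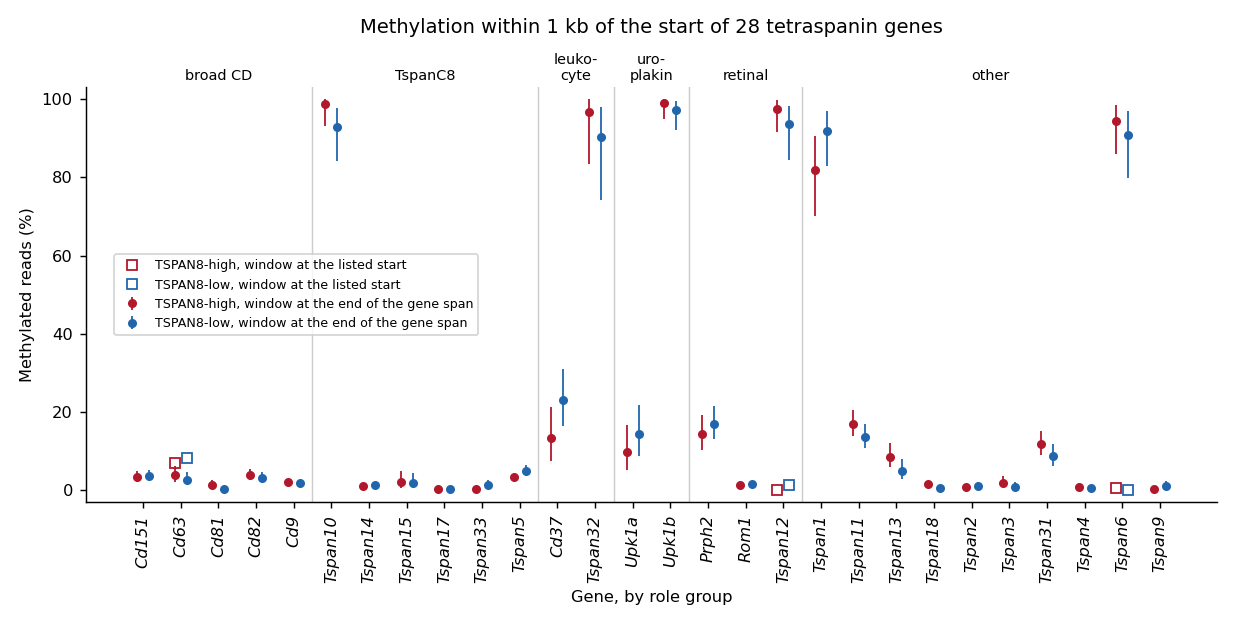
Methylated reads (%) within 1 kb either side of the start, for the 28 tetraspanin genes with at least 5 CpGs there, grouped by role. Filled circles with 95% exact intervals are windows at the end of the gene span; open squares mark the listed transcript start for Cd63, Tspan12 and Tspan6, where it lies over 1 kb inside the span. In both libraries 21 genes lie below 20% and 6 above 80%; Tspan12 and Tspan6 fall from above 90% at the span end to below 2% at the listed start.

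The broadly expressed CD tetraspanins had unmethylated starts, all 5 of 5 below 5% in both libraries, as were 66.5% of all gene starts. Cd9, which eggs need for fusion with sperm, had 2.02% of 1236 reads methylated in TSPAN8-high against 1.86% of 1453 in TSPAN8-low, over 52 CpGs. Cd81, a co-receptor of B cells and a close relative of Cd9, was at 1.34% of 596 and 0.330% of 909, a high-minus-low difference of 1.01 percentage points (interval 0.0954 to 2.31, Fisher's exact test adjusted p = 0.229). Cd82, known as a suppressor of metastasis, was at 3.89% and 3.04%. These genes were near 0 in both fractions. Cd151, a partner of laminin-binding integrins, was at 3.41% and 3.60%. Cd63, a protein of late endosomes and exosomes, was at 3.85% and 2.67% at the end of its span, and at 7.03% and 8.26% at its listed start farther inside. Differences at the span ends in this group ran from -0.19 to 1.18 percentage points.

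The TspanC8 group, whose members escort the protease ADAM10 to the cell surface, held 5 unmethylated starts of 6. Tspan17 had 0.412% of 1214 reads methylated in TSPAN8-high against 0.334% of 1196 in TSPAN8-low over 40 CpGs. Tspan14 was at 1.18% and 1.33%, and Tspan15 at 2.16% and 1.93%. Tspan33 was at 0.404% and 1.46%, a high-minus-low difference of -1.05 percentage points (adjusted p = 0.290 by Fisher's exact test). These starts were nearly free of methylation in both libraries. Tspan5 was at 3.30% and 4.88% at the end of its span (Fisher's exact test adjusted p = 0.343). At its listed start, 0.593% and 1.93% were methylated, a high-minus-low difference of -1.34 percentage points (interval -2.41 to -0.41, Fisher's exact test adjusted p = 0.0917). Tspan10 stood apart from its group, with 77 of 78 reads methylated in TSPAN8-high against 65 of 70 in TSPAN8-low (98.7% and 92.9%, interval of the difference -1.08 to 14.4).

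Neither of the leukocyte tetraspanins with a measured start was below 5%. Tspan32, expressed in blood cells, had 30 of 31 reads methylated in TSPAN8-high against 28 of 31 in TSPAN8-low, over 5 CpGs. Cd37, a B cell protein, had 14 of 105 reads methylated in TSPAN8-high against 32 of 138 in TSPAN8-low, over 10 CpGs, a high-minus-low difference of -9.86 percentage points (interval -19.2 to 0.152, Fisher's exact test adjusted p = 0.342). At the Cd37 listed start the levels were 23.3% and 32.7%. These levels average over unlike CpGs. Within 1 kb of the Cd37 span end, 5 neighbouring CpGs were at 9.09% and 14.8%, and a single cytosine at 3 of 15 and 10 of 12 reads. The tile at chr7:45239001-45240000 went the other way, at 9.38% and 0%. In pooled cells, a level between 0 and 100% in every cell and a mixture of methylated and unmethylated cells cannot be told apart either. No CpG was measured within 1 kb of the start of Cd53, a leukocyte protein, and the 23 CpGs of its span were at 90.9% in both libraries.

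The uroplakins, which form the plaques of the bladder surface, could not be compared at their starts, because it was not known which end of Upk1b is its start. Upk1b had 107 of 108 reads methylated in TSPAN8-high against 105 of 108 in TSPAN8-low, at the end of its span with more CpGs, since the tables used give no strand for it. Upk1a was at 9.92% of 121 reads and 14.4% of 125, a high-minus-low difference of -4.48 percentage points with an interval from -12.8 to 3.87. Upk1a differs from the other genes with low levels in its sequence: its listed promoter holds 0 CpGs in 300 bases, and the nearest unmethylated run lay upstream at chr7:30613397-30613922 (13 CpGs, 5.50% and 7.21%).

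The retinal members had unmethylated or partly methylated listed starts. Rom1, a structural protein of photoreceptor discs, was at 1.35% and 1.57% over 60 CpGs, in a run of low methylation that also covers the start of the neighbouring gene Eml3. Prph2, its partner in the disc rim, was at 14.4% of 271 reads and 17.0% of 324. Of the Prph2 CpGs, those inside the 300-base promoter were at 24.0% and 27.7%. Tspan12, a part of the Norrin receptor complex with FZD4 and LRP5, was at 97.6% and 93.5% at the end of its span. Its listed start, at position 21852533 of chromosome 6, had 2 of 943 reads methylated in TSPAN8-high against 11 of 772 in TSPAN8-low (0.212% and 1.42%, 57 CpGs). The difference there was -1.21 percentage points (interval -2.33 to -0.37, Fisher's exact test adjusted p = 0.0782), below the size that could be called.

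Of the 11 remaining members, 10 had a start window with enough CpGs and 8 were below 20%. Tspan4, a marker of migrasomes, and Tspan2, Tspan3, Tspan9 and Tspan18 lay between 0.325% and 1.94% in TSPAN8-high, and between 0.605% and 1.20% in TSPAN8-low. Among the member windows at span ends, Tspan18 had the lowest adjusted p, 0.183 by Fisher's exact test. It had 30 of 1943 reads methylated in TSPAN8-high against 13 of 1829 in TSPAN8-low. The high-minus-low difference was 0.83 percentage points (interval 0.152 to 1.55). Tspan18 has no known strand, so its window lies at the end of its span with more CpGs. At listed starts, Tspan12 (0.0782) and Tspan5 (0.0917) had lower adjusted p by the same test. Tspan13 was at 8.57% and 4.95%, Tspan11 at 17.0% and 13.7%, and Tspan31, which lies tail to tail with Cdk4, at 11.9% and 8.81%. At the Tspan31 listed start the levels were 1.81% and 2.40%. The CpGs measured in the 300-base promoter were lower than the window for Tspan11 (2 CpGs, 0% and 1.92%) and Tspan13 (5 CpGs, 2.44% and 0%). Tspan1, an epithelial member, had 50 of 61 reads methylated in TSPAN8-high against 67 of 73 in TSPAN8-low, a high-minus-low difference of -9.81 percentage points (interval -22.1 to 1.68, adjusted p = 0.449 by Fisher's exact test and 0.183 by the CMH test). The X-linked gene Tspan6 was at 94.3% and 90.7% at the end of its span, but its listed start at position 133898429 was at 0.568% and 0%. Tspan7, also X-linked and linked to intellectual disability in humans, had 3 CpGs at its start, too few for a test, with 0 of 24 and 0 of 18 reads methylated, which allows up to 12.5% and 16.7% when a count of 0 is read as at most 3 methylated reads.

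At the first listed transcript start in place of the span end, 26 members could be measured: 22 were below 20% in both libraries and 3 above 80%, namely Tspan1, Tspan10 and Tspan32. These shares were 84.6% and 11.5%, against 86.2% and 7.72% of all genes with a listed start, so the members lay closer to all genes here than at the span ends. The 3 methylated starts had 1 to 6 CpGs in the 300-base promoter. The 22 below 20% had 0 to 43, with a median of 18.5, and all 16 members with at least 10 CpGs were among them. Across the 26 genes the number of CpGs in the 300 bases and the level within 1 kb either side of the start correlated at a Spearman rho of -0.66. No CpG of the 300 bases was measured in Tspan10 or Tspan32. The correlation is a description across genes. The 300 bases were read unevenly, with 1 of 43 CpGs measured at Tspan5 and 5 of 7 at Tspan12.

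**Figure D2:**
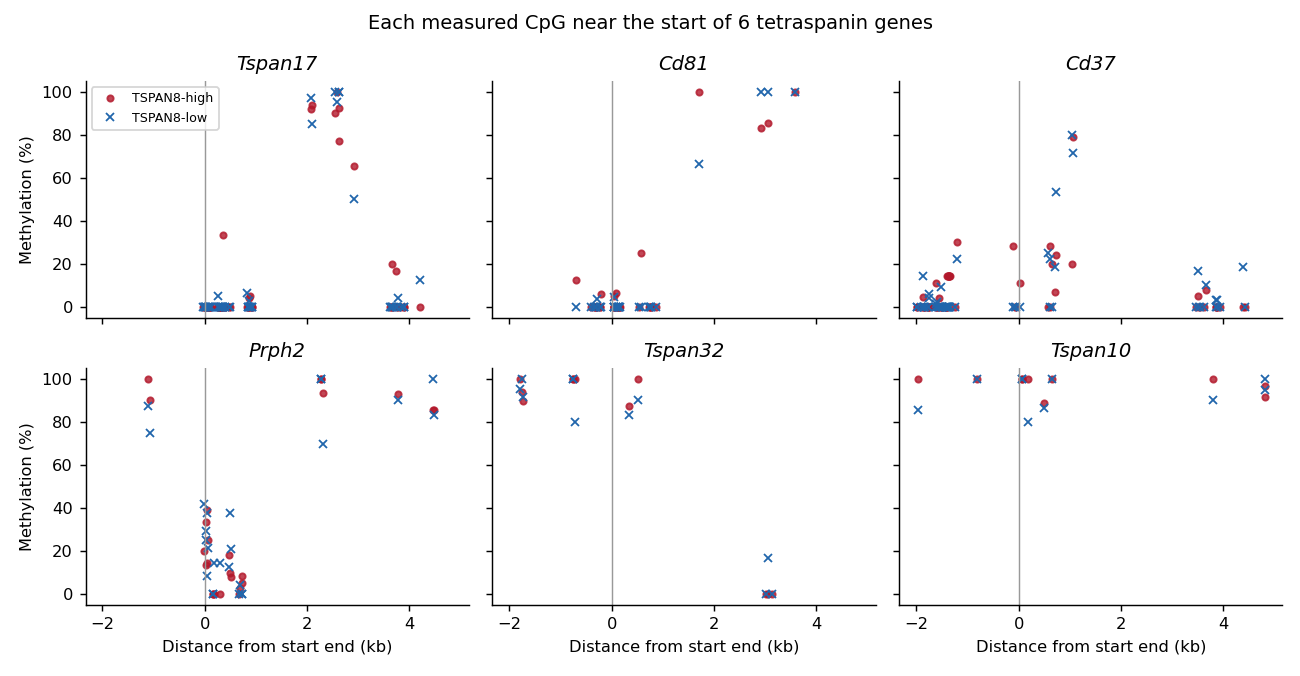
Methylation (%) of each measured CpG, strands merged, against distance from the start end of the gene span (kb, vertical line at 0) for 6 members, with TSPAN8-high as circles and TSPAN8-low as crosses. Tspan17 and Cd81 lie mostly near 0 within 1 kb of the start, Prph2 below 45%, Cd37 mixed, and Tspan32 and Tspan10 above 75%.

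Beyond the starts, the members showed the same division into unmethylated runs and methylated sequence. A run was at least 5 neighbouring CpGs below 20%, with no gap over 500 bp, so its low level is how it was found and is given as a description. There were 40 runs in 24 members, and 20 members had a run at the start end of their own span, with a median width of 1211.5 bp and the widest, 2442 bp, at Tspan5. Outside the runs the members' CpGs were methylated at a median of 90.2% in TSPAN8-high against 90.3% in TSPAN8-low. Cd53, Tspan1, Tspan7, Tspan10, Tspan32 and Upk1b had no run.

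The 20 other runs lay away from the start end of the span. In Tspan9, which spans positions 127961396 to 128143578 of chromosome 6 on the minus strand, a second run of 75 CpGs lay 108156 to 109438 bp inside the gene, over a listed alternative start, with 1.13% of 1854 reads methylated in TSPAN8-high against 0.874% of 1487 in TSPAN8-low. Its 2 intermediate listed starts were methylated, at 89.0% and 87.8% (3 CpGs) and at 97.2% and 95.8% (8 CpGs). The alternative starts of 1 gene thus ranged from near 0 to near 100%, alike in both libraries. The innermost listed starts of Cd82 (98.7% and 97.2%) and Tspan14 (95.9% and 94.5%) were methylated as well. That of Cd151 was at 24.6% and 30.1% within 1 kb, a window that takes in part of the unmethylated run at its first start. The 2 CpGs measured in the 300-base promoter of this inner Cd151 start were at 83.3% of 30 reads and 75% of 28.

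Some runs covered no listed start of the gene. Tspan4 had a run of 70 CpGs, 6691 to 7484 bp inside the gene, with 0.563% of 1598 reads methylated in TSPAN8-high against 1.29% of 1245 in TSPAN8-low. Tspan5 had a run of 10 CpGs 46278 to 46560 bp inside and another of 6 CpGs near the far end of its span. Prph2 had 12 CpGs 6159 to 7284 bp inside at 3.56% and 6.23%, and Tspan33 had 13 CpGs at the far end of its span at 3.31% and 3.76%. Other runs belong to neighbours inside the flanks. The run downstream of Cd81 lies on Tssc4 (0.239% and 0.203%), and the run upstream of Cd37 covers the start of Slc6a16 (1.63% and 0.947%). Low methylation within these members' windows is therefore in part that of other genes.

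**Figure D3:**
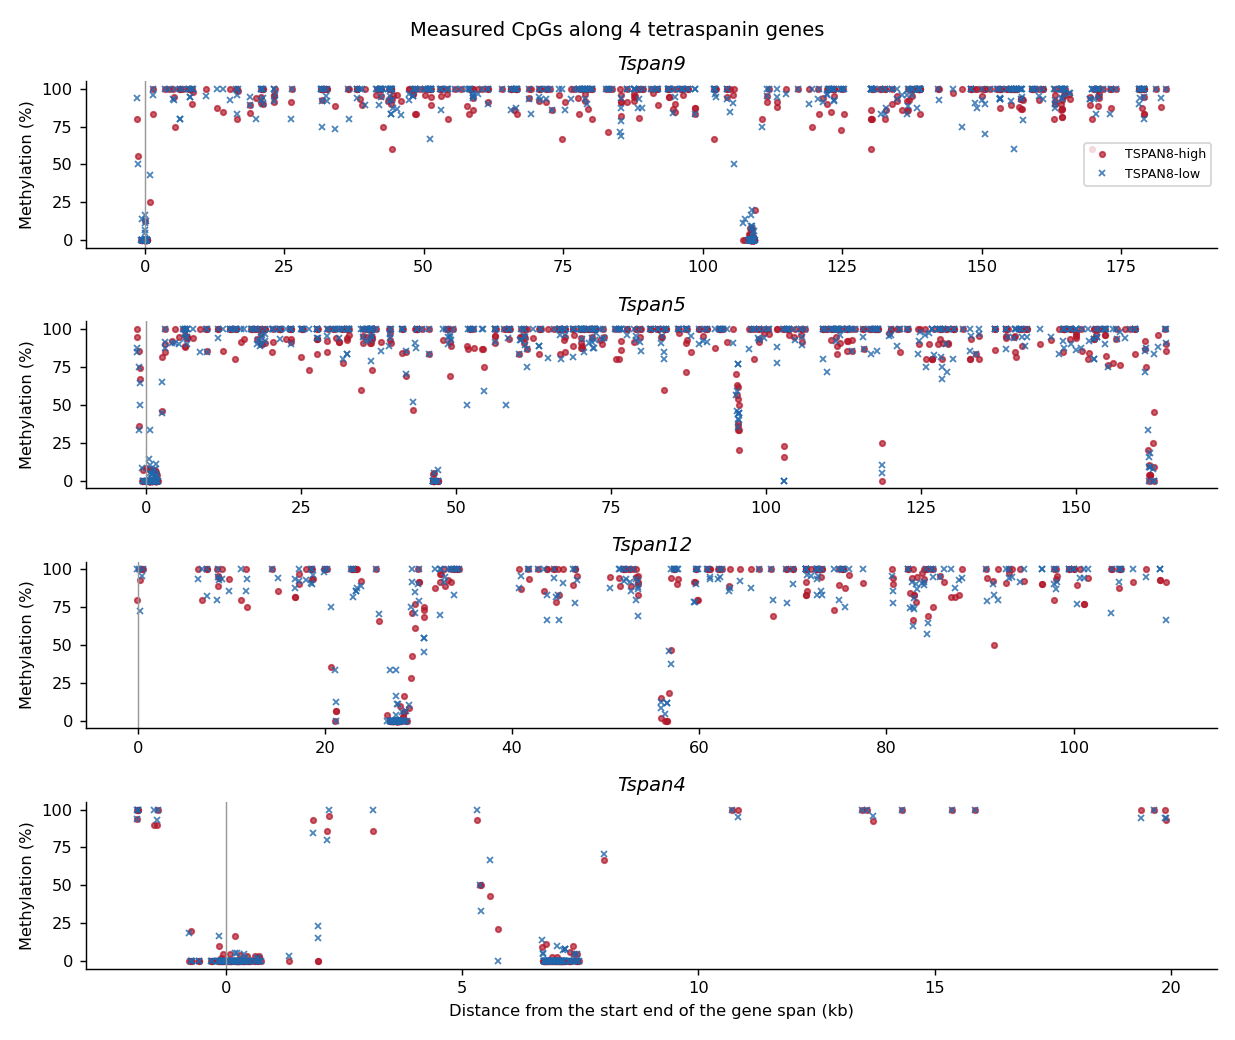
Methylation (%) of each measured CpG along Tspan9, Tspan5, Tspan12 and Tspan4 against distance from the start end of the gene span (kb), with TSPAN8-high as circles and TSPAN8-low as crosses. Runs near 0 appear at the start of Tspan9, Tspan5 and Tspan4, and inside all 4 genes, in both libraries; outside them most CpGs lie above 75%.

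Over whole gene spans with flanks, all 30 members were tested and none was called at 10 percentage points by Fisher's exact test, a rule that called 1.15% of 19763 genes. At an unadjusted p below 0.05 the same test gave 10 members (33.3%, against 30.1% of all genes) and the CMH test gave 2 (6.67%, against 17.0%). With no minimum difference 5 members passed an adjusted p below 0.05, where 18.1% of all genes did: Cd81, Cd82, Tspan9, Tspan14 and Tspan17. The CMH test with no minimum difference passed 0 of the 30, where it passed 2.77% of genes. At a minimum of 5 percentage points Cd81 and Cd82 were called, where 7.98% of genes were. The members' shares in these tests were near or below those of all genes.

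Cd81 had the largest pooled difference, with 394 of 1493 reads methylated in TSPAN8-high against 356 of 1831 in TSPAN8-low (26.4% and 19.4%, difference 6.95 percentage points, interval 4.08 to 9.83, Fisher's exact test adjusted p = 8.93e-05). Compared cytosine by cytosine, its Mantel-Haenszel difference was 0.22 percentage points, and the CMH test did not pass. The share of reads that fell on CpGs below 20% was 72.8% in TSPAN8-high against 79.8% in TSPAN8-low, so the libraries read unmethylated CpGs of Cd81 in different proportions. Without the flanks Cd81 was called, at 53.2% and 37.8% pooled (1.54% of gene spans were called that way), while its difference by cytosine was -0.05. On minus-strand cytosines alone Tspan6 was the member called, at 43.1% and 29.5% pooled (2.69% of gene spans were called there), and its difference by cytosine was 0.22. Cd82 went the other way, from 66.2% in TSPAN8-high to 71.3% in TSPAN8-low pooled (difference -5.04, adjusted p = 0.00226 by Fisher's exact test) and 0.26 by cytosine, with 32.8% and 26.9% of reads on CpGs below 20%. The pooled and stratified differences of these genes thus had different sizes, and for Cd82, and for Cd81 without the flanks, different signs.

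In the other 3 members the stratified difference was likewise smaller than the pooled one, with the opposite sign in Tspan14. Tspan17 was at 19.3% and 15.8% pooled (difference 3.59 percentage points, Fisher's exact test adjusted p = 0.0427), and 0.48 by cytosine. Tspan14 was at 58.1% and 54.6% (difference 3.53, Fisher's exact test adjusted p = 0.0261), and -0.42 by cytosine. Tspan9 was at 70.4% and 72.8% (difference -2.41, Fisher's exact test adjusted p = 0.00379), and -0.51 by cytosine. Each of the 5 stratified differences was below 1 percentage point in size.

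Over the family, 59.1% of reads were methylated in TSPAN8-high against 59.6% in TSPAN8-low, a high-minus-low difference of -0.50 percentage points (interval -1.02 to 0.00587), and -0.15 by cytosine. The median difference over the 30 spans was 0.32 percentage points, against -0.52 over all genes, and by cytosine -0.09 against -0.06. The stratified differences of single members ran from -4.06 (Tspan1) to 2.49 (Upk1a). By cytosine, 13 members were higher in TSPAN8-high and 17 lower. The 2 with an unadjusted CMH p below 0.05 were both lower in TSPAN8-high, Tspan7 with a stratified difference of -2.13 percentage points and Cd37 with -1.63, and neither passed after adjustment.

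Tspan8 itself, the gene of the sorting antigen, was at 84.2% and 81.1% over the 120 CpGs of its span on chromosome 10 (pooled difference 3.08 percentage points, Fisher's exact test adjusted p = 0.0423), and the difference by cytosine was 5.92 (CMH adjusted p = 4.87e-06). No CpG was measured within 1 kb of its start, and the difference between Tspan8 and the other members was not tested.

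**Figure D4:**
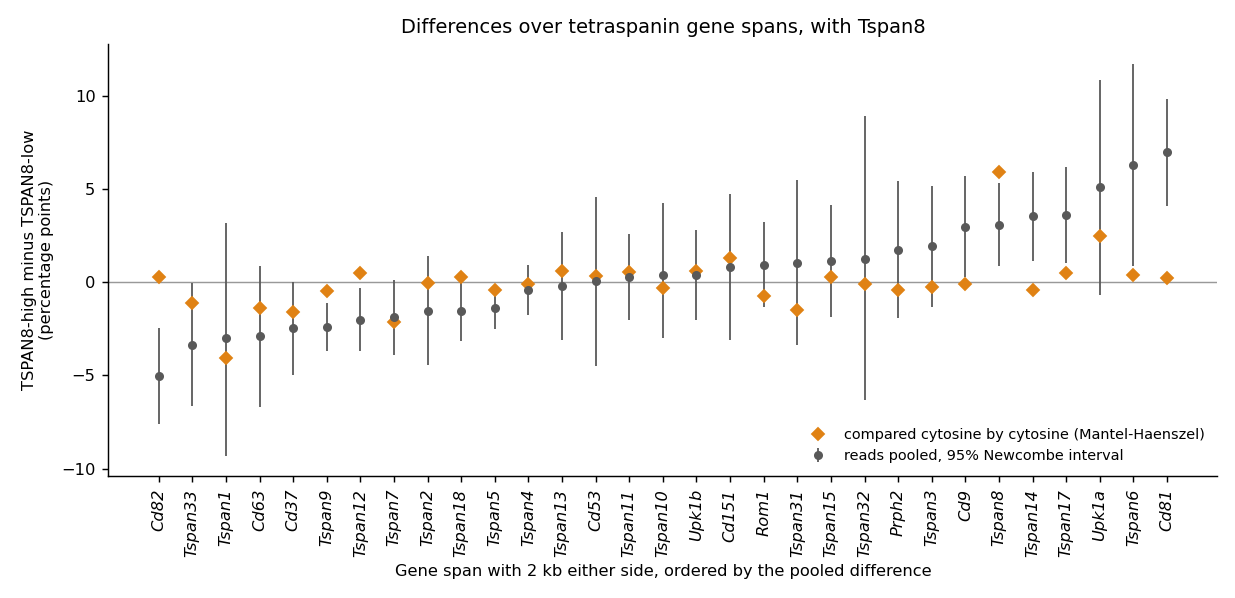
TSPAN8-high minus TSPAN8-low (percentage points) over the gene span with 2 kb either side, for the 30 members and Tspan8, ordered by the pooled difference. Circles with 95% Newcombe intervals pool all reads and diamonds compare the libraries at each cytosine; pooled values run from -5.04 (Cd82) to 6.95 (Cd81), whereas the diamonds of the 30 members lie between -4.06 and 2.49 and that of Tspan8 at 5.92.

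Tiles of 1 kb with at least 3 CpGs were tested to find differences inside long genes. None of 491 member tiles was called by Fisher's exact test, which called 0.269% of 584853 tiles, and none by the CMH test, which called 0.332%. At an unadjusted p below 0.05 there were 37 (7.54%, against 8.60% of all tiles), 18 higher and 19 lower in TSPAN8-high. The 5 tiles with the lowest p were a mixture of genes, places and directions. The first lay inside Upk1a at chr7:30605001-30606000, where 3 CpGs had 108 of 110 reads methylated in TSPAN8-high against 60 of 71 in TSPAN8-low (98.2% and 84.5%, difference 13.7 percentage points, interval 5.63 to 23.9, Fisher's exact test adjusted p = 0.103). The second, at the unmethylated start of Tspan5, had 5 of 1070 reads methylated in TSPAN8-high against 19 of 892 in TSPAN8-low over 45 CpGs (0.467% and 2.13%, adjusted p = 0.141 by Fisher's exact test).

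Of the other 3 tiles, 2 were in the body of Tspan9 and went in opposite directions. At chr6:128038001-128039000, 115 of 118 reads were methylated in TSPAN8-high against 65 of 77 in TSPAN8-low (Fisher's exact test adjusted p = 0.146). At chr6:127979001-127980000 they were 129 of 145 and 117 of 119 (Fisher's exact test adjusted p = 0.186). The fifth tile, at chr6:125495001-125496000 on the upstream edge of the unmethylated start of Cd9, had 10 of 224 reads methylated in TSPAN8-high against 26 of 209 in TSPAN8-low (4.46% and 12.4%, Fisher's exact test adjusted p = 0.198). By the CMH test this Cd9 tile had an adjusted p of 0.0573, with a difference by cytosine of -8.85 percentage points. None of the 5 differences could be told from counting error after adjustment over all tiles.

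**Figure D5:**
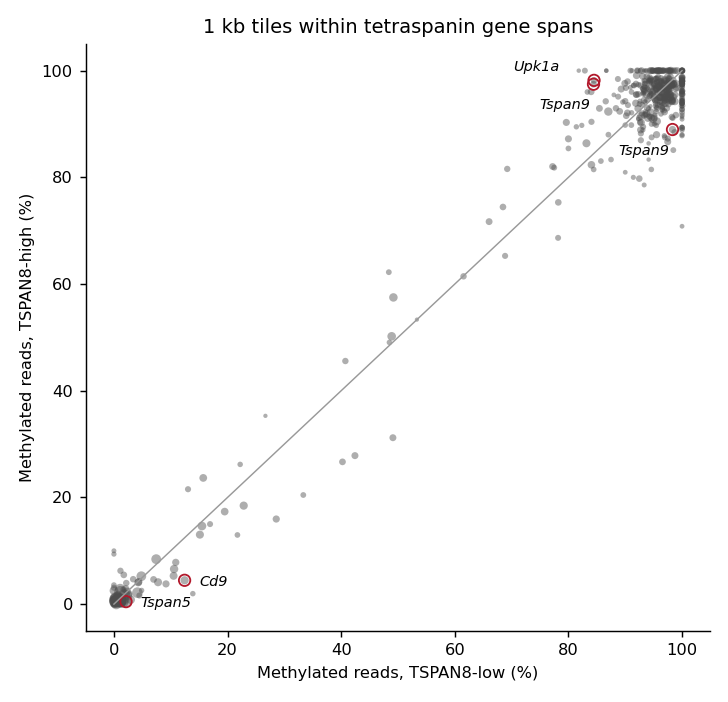
Methylated reads (%) in TSPAN8-high against TSPAN8-low for the 1 kb tiles of the members, with point area growing with the number of reads and the line of equality. Circles mark the 5 tiles with the lowest p, none past an adjusted p of 0.05; the tiles gather near 0 and near 100% along the line.

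No single cytosine of the members was called at 20 percentage points by Fisher's exact test, with 0.00111% of all cytosines called. At an unadjusted p below 0.05 there were 55 (0.948%, against 1.47% of all), and every adjusted p was 1. The lowest p belonged to a cytosine upstream of Tspan31, methylated in 10 of 10 reads in TSPAN8-high against 2 of 8 in TSPAN8-low, followed by a cytosine in Cd37 at 3 of 15 and 10 of 12. At the depth of these cytosines, differences of this size did not pass after adjustment over the whole table.

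The proteins that tetraspanins are known to bind or to act with were described from a list of 39 genes, of which 32 had a measured start window. Of these, 28 were below 20% in both libraries, where 82.6% of all genes were, among them the integrin subunit Itgb1 (1.34% and 0.702%) and the protease Adam10 (0.296% and 1.07%). Izumo1r, the egg receptor for sperm, was above 80%, at 91.1% and 90.6%. None was called, where 0.74% of all genes were. By level, 16 were higher and 15 lower in TSPAN8-high, and 1 was equal, with a median difference of 0.06 percentage points. The 4 with the lowest p by Fisher's exact test were Notch1, Adam10, Dpp4 and Izumo1. Notch1, a receptor that ADAM10 cleaves, had 28 of 1158 reads methylated in TSPAN8-high against 6 of 916 in TSPAN8-low, a high-minus-low difference of 1.76 percentage points that passed an adjusted p of 0.05 but not the minimum size, with an adjusted p of 0.0398 by Fisher's exact test and 0.0822 by the CMH test. It was the 1 partner of 32 past that p, which 4.47% of all genes passed. Adam10 differed by -0.77 percentage points (adjusted p = 0.164 by Fisher's exact test). Dpp4 was at 35.2% and 25.0% pooled (difference 10.2, Fisher's exact test adjusted p = 0.277) but at -2.90 by cytosine. On the minus strand alone Dpp4 was called, 26.0 percentage points higher pooled (0.551% of start windows were called there) and at -0.90 by cytosine. Izumo1, the sperm protein that binds IZUMO1R, was at 39.7% and 32.0% (Fisher's exact test adjusted p = 0.279) and at 2.78 by cytosine.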

How the data were processed

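Per the labels' protocols, DNA (300 ng) from the pooled sorts was cut with BfaI, MseI and MspI, treated with bisulfite and sequenced with paired reads of 50 bp by a sequencing service. The submitters' processing notes list mm10, mm9, Bowtie and SICER but not the assay each served; the methylation caller is not given in the sources used here. The table deposited by the authors lists cytosines of CpGs by strand. The deposited level is a fraction with 2 decimals, the methylated share of the reads. Coverage was deposited as a read count, never below 5. The deposited difference (unit other) is the level in TSPAN8-high minus that in TSPAN8-low. The authors' deposited p-value equalled the Fisher p computed here at 93.6% of cytosines (relative tolerance 0.001 or absolute 5e-05) and was not used further. Positions were checked against RefSeq GRCm38.p6 promoters, where 100% of 231323 listed cytosines fell on a CG.

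The number of methylated reads was recovered by multiplying level and coverage and rounding. Pooled reads were tested with Fisher's exact test (two-sided) and, stratified by cytosine, with the CMH test, each adjusted by Benjamini-Hochberg over all features of a kind. A read that covers several CpGs counts at each, which makes the p-values too small and the intervals too narrow. Reads carry no molecular identifiers, and intervals cover no more than counting error. Gene spans came from the RefSeq gene table and strands from the promoter table, which lists 28 of the 30 members. Where no strand was given (Tspan18, Upk1b), the end with more measured CpGs was used. Exons were not annotated in the tables used. Scripts ran on Python 3.11.15, numpy 2.4.6, pandas 2.3.3, SciPy 1.17.1, numba 0.67.0 and matplotlib 3.10.9, and the tests were checked on simulated tiles. For pooled reads, false calls by Fisher's exact test were held to a limit only where all cytosines of a tile shared a level. No limit was set where cytosines kept their own levels, as in real data, because pooling cytosines of unequal level and depth makes extra calls.

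All members were described. Called members were to be named, or with fewer than 3 called tiles the 5 with the lowest p, and from the partner list the 4 with the lowest p. Members, lists and rules were chosen with earlier results of these data known. Alternatives changed the read minimum, difference minimum, window, strand, depth limit and test, and the closing section gives their effect.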

Additional observations from a re-analysis of the deposited data

How the results depend on the processing

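The counts of called member start windows, tiles and cytosines stayed at 0 under every alternative run. Over these, the gene spans and the partner starts, 40 of 46 alternative counts were 0. For gene spans, 2 members were called with a minimum of 5 percentage points (Cd81 and Cd82), 5 with no minimum, 1 without the flanks and 1 on the minus strand alone. Pooled differences were 15.4 percentage points at Cd81 without the flanks and 13.6 at Tspan6 on the minus strand, and neither passed the CMH test. For partner starts, 1 was called on the minus strand (Dpp4, 26.0 percentage points pooled and -0.90 by cytosine) and 1 with no minimum difference (Notch1). The median difference over member spans was 0.32 percentage points, -0.45 without the flanks, and between -0.10 and 0.51 under the other settings, so its sign is not fixed. Windows at the first listed transcript start and spans without the start window were chosen as alternatives after seeing the data. No paired analysis was possible because each fraction has 1 library, and no library could be left out. Depth limits single cytosines, with a median of 10 reads, and start windows with few CpGs, where the interval of a difference reached 29.9 percentage points.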
